A study of Homo sapiens with 18 samples.

Results

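The collagen hydroxylases and crosslinking enzymes were followed in 3 high-grade serous ovarian cancer (HGSOC) lines that had been placed on a model of the omentum, the fatty apron in the abdomen to which this cancer spreads. The 10 genes were chosen by name from the 58288 genes counted in each library, with earlier results of these data known. They were the prolyl 4-hydroxylase subunits P4HA1, P4HA2 and P4HA3, the lysyl hydroxylases PLOD1, PLOD2 and PLOD3, and the lysyl oxidases LOX, LOXL1, LOXL2 and LOXL4. Kuramochi, OVCAR4 and OVCAR8 cells labelled with GFP were grown for 48 h on a 3D omentum culture, in which primary omental fibroblasts in collagen I were covered by primary mesothelial cells, and were then recovered by fluorescence-activated sorting (3D). Control cells of the same line were seeded directly on tissue culture dishes and passed through the sorter (plastic). Each line and culture had 3 libraries, from independent experiments according to the methods, which gives 18 libraries in 6 groups. Some libraries of a group differed little from each other. The chi-square per degree of freedom was 1.885 for replicates 4 and 6 of OVCAR4 on 3D. It was 2.598 for 61 and 62 of OVCAR8 on 3D and 2.925 for 4 and 62 of OVCAR8 on plastic. The other pairs within a group had 8.637 to 102.4. The main fit counted all of them as separate libraries, and whether the close pairs are independent was not tested. Each line is one established culture, at passages 35 to 45 for Kuramochi, 45 to 55 for OVCAR4 and 30 to 40 for OVCAR8 by the labels. Differences between the lines therefore cannot be told apart from differences of passage. The fibroblasts and mesothelial cells came from surgical donors, so RNA of those cells that passed the sort would be counted with that of the line.

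Collagen chains are modified in the endoplasmic reticulum before they leave the cell. Prolyl 4-hydroxylases, made of a catalytic alpha subunit (P4HA1, P4HA2 or P4HA3) and the beta subunit P4HB, hydroxylate prolines, which keeps the triple helix stable at body temperature. Lysyl hydroxylases of the PLOD family hydroxylate lysines: PLOD1 acts mainly on helical lysines, PLOD2 on those of the telopeptides at the chain ends, and PLOD3 also attaches sugars to hydroxylysine. Outside the cell, the copper enzymes of the lysyl oxidase family oxidise lysines and hydroxylysines, which then join neighbouring chains, and the hydroxylation of the telopeptide lysines sets which kind of crosslink forms. LOXL1 is best known for elastin and LOXL2 for collagen IV of basement membranes.

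The libraries held 28415048 to 43142540 counts each (median 33980300). Levels are given as CPM, which divides the counts of a gene by the size of its library after TMM scaling. The labels of the lines were checked against 7 markers, PAX8, EPCAM, KRT8, KRT18, KRT7, MUC16 and WT1. PAX8, a transcription factor of the Müllerian lineage, was present in all lines, with means of 461 CPM on 3D and 476 CPM on plastic in Kuramochi, 302 and 179 CPM in OVCAR4, and 68.3 and 58.8 CPM in OVCAR8. The epithelial adhesion molecule EPCAM was at 3.18 CPM on 3D and 3.82 CPM on plastic in Kuramochi, 17.5 and 16.3 CPM in OVCAR8, and 350 and 414 CPM in OVCAR4, while WT1, often used to identify serous carcinoma, averaged under 1 CPM in OVCAR4 and OVCAR8. In Kuramochi, WT1 was at 17.5 to 35.5 CPM on 3D and 39.7 to 46.7 CPM on plastic. MUC16 was at 0 in each OVCAR8 plastic library. Some of these markers were also called between the cultures (adjusted p under 0.05). In OVCAR4, PAX8, MUC16 and WT1 rose on 3D and KRT8 and KRT18 fell. MUC16 rose in Kuramochi, and no marker of this list was called in OVCAR8.

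All genes were counted on GRCh38, with an earlier GENCODE annotation according to the methods of the study. Positions and exon lengths given here are those of GENCODE 44 on that build. P4HA1 lies at chr10:73007217-73096974, P4HA2 at chr5:132190147-132295315 and P4HA3 at chr11:74235801-74311640, all on the minus strand. PLOD1 lies at chr1:11934205-11975538 on the plus strand, PLOD2 at chr3:146035139-146163725 and PLOD3 at chr7:101205977-101218420 on the minus strand. LOX lies at chr5:122063195-122078413 and LOXL4 at chr10:98247690-98268194 on the minus strand, and LOXL1 at chr15:73925989-73952137 on the plus strand. Exons of P4HA2 share 548 bp with P4HA2-AS1, those of LOXL1 335 bp with LOXL1-AS1 and those of LOXL2 178 bp with LOXL2-AS1, on the opposite strand. LOX shares 138 bp with SRFBP1, P4HA3 166 bp with PPME1 and PLOD3 102 bp with ZNHIT1, also on opposite strands, and LOXL2 shares 120 bp with ENTPD4 on the same strand. The libraries were made with a stranded kit, but no source used here gives the strand setting of the counting, so the levels of P4HA3 and of other low genes may hold reads of an overlapping gene.

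The promoters of 3 members are shown because P4HA2 and LOXL4 rose on 3D in all lines and the fold change of LOX on 3D had the widest range over the lines, as described below. RefSeq (GRCh38.p14) gave a window of 250 bases before to 50 bases after the start for 8 of the 10 members, the exceptions being P4HA3 and LOXL2. The window of LOX is chr5:122078210-122078509, that of P4HA2 chr5:132227042-132227341 and that of LOXL4 chr10:98268145-98268444, all read 5′ to 3′ on the minus strand. Capitals mark ACGTG, the core of the hypoxia response element, or its reverse complement CACGT in LOX, and GGAATG, a TEAD motif, in P4HA2. The window of LOXL4 held none of the motifs searched.
LOX: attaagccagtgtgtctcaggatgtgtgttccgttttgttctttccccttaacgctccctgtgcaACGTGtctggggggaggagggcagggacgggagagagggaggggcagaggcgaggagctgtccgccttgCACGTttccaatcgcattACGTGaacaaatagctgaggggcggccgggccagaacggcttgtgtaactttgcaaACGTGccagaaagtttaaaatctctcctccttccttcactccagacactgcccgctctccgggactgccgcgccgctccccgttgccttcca
P4HA2: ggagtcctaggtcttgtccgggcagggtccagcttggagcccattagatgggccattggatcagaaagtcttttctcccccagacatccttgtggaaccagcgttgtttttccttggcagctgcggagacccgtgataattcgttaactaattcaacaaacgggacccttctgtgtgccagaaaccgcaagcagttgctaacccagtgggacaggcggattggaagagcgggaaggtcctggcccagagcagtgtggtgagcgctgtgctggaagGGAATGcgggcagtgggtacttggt
LOXL4: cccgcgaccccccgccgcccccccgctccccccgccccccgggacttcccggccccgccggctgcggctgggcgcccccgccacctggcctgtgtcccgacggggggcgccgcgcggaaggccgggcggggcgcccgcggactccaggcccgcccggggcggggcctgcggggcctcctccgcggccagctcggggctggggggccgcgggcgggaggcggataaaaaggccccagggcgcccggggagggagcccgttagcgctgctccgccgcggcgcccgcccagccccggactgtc

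The motifs were searched on both strands. ACGTG was found 4 times in LOX, 2 times in PLOD2 and 1 time in P4HA1, thus in 3 of 8 members, and in 21.4% of the 35116 promoter windows of this length. GCGTG, the other form of the same core, was in PLOD1 and PLOD2 and in 36.5% of all windows. GGAATG was in P4HA2 and in 14% of all windows, TATAAA in P4HA1 and in 11.5%, and TGANTCA, the AP-1 motif, in no member and in 7.71% of all windows. GC content spanned 55.67% in P4HA2 to 85.33% in LOXL4. These are matches of letters in 1 annotated start per gene, not binding sites.

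On plastic, counts of each of these enzymes were found in all 3 lines, and their levels and order differed between the lines. Compared per kilobase of exon, the highest member of Kuramochi was LOXL1 with 57.3 CPM per kb, followed by PLOD1 with 52.5 and PLOD3 with 30.3 CPM per kb. In OVCAR4, PLOD1 led with 52.8 CPM per kb before PLOD3 with 45.9 and P4HA1 with 33.8 CPM per kb, and in OVCAR8 LOXL2 led with 32.0 CPM per kb before PLOD3 with 17.0 and P4HA1 with 16.9 CPM per kb. P4HA3 and LOXL4 held 2 of the last 3 places in each line, and in Kuramochi LOX was the remaining one with 0.174 CPM per kb, against 3.44 CPM per kb in OVCAR4 and 3.01 CPM per kb in OVCAR8. The libraries of neighbours in this order overlapped for LOXL1 and PLOD1, P4HA2 and LOXL2, and LOXL4 and LOX in Kuramochi, and for PLOD1 and PLOD3 in OVCAR4. In OVCAR8 they overlapped from PLOD3 over P4HA1 to PLOD1, from LOXL1 over LOX to P4HA2, and for P4HA3 and LOXL4, so none of these places were separated by the spread. With the length of the canonical transcript in place of the exon union, PLOD1 with 93.8 CPM per kb stood above LOXL1 with 88.9 CPM per kb in Kuramochi, and PLOD2 moved from below to above P4HA1 in Kuramochi and OVCAR8.

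**Figure D1:**
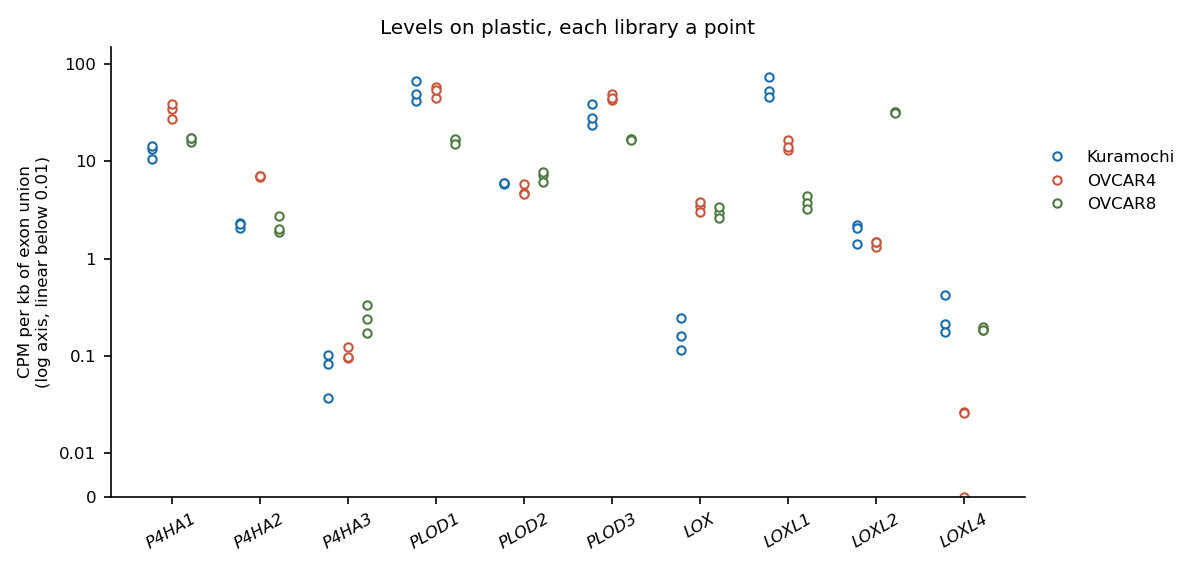
Levels of the 10 enzymes on plastic in CPM per kilobase of exon union (vertical axis, logarithmic and linear below 0.01), with each of 3 libraries per line a point and the lines in separate colours. When each enzyme is compared between the lines, LOXL1 is highest in Kuramochi, LOXL2 in OVCAR8 and P4HA2 in OVCAR4, and LOX is lowest in Kuramochi. No LOXL4 count was found in 1 OVCAR4 library.

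The plastic levels were compared by edgeR's quasi-likelihood test with Benjamini-Hochberg adjustment over 22023 genes. Between Kuramochi and OVCAR4, 6 of 10 members differed, 2 higher and 4 lower in Kuramochi, where 61.7% of all genes tested differed (31.6% higher and 30.1% lower). Between OVCAR8 and OVCAR4, 9 of 10 differed, 4 higher and 5 lower in OVCAR8 (68.9% of all genes, 33.6% higher and 35.3% lower), and between OVCAR8 and Kuramochi 7 of 10 differed, 4 higher and 3 lower in OVCAR8 (67.7% of all genes, 32.2% higher and 35.5% lower). The share of members that differed was thus near that of all genes between Kuramochi and OVCAR4 and between OVCAR8 and Kuramochi.

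LOX, LOXL1 and LOXL2 carried the largest differences between lines of the members above 1 CPM in at least 1 line. LOXL2 had 193, 191 and 191 CPM in OVCAR8, against 7.97, 8.97 and 9 CPM in OVCAR4 and 8.41, 13.2 and 12.3 CPM in Kuramochi. This was a log2 difference of 4.47 (SE 0.248, adjusted p = 2.26e-11) between OVCAR8 and OVCAR4 and of 4.08 (SE 0.242, adjusted p = 6.46e-11) between OVCAR8 and Kuramochi. LOXL1 had 268, 191 and 166 CPM in Kuramochi, against 47.7, 60.1 and 51.2 CPM in OVCAR4 and 15.9, 13.7 and 11.7 CPM in OVCAR8, and no library of one line reached into another (1.98 for Kuramochi relative to OVCAR4, adjusted p = 5.03e-06, and -1.94 for OVCAR8, adjusted p = 5.14e-06). LOX had 0.644, 0.909 and 1.37 CPM in Kuramochi, against 19.5, 16.8 and 21.4 CPM in OVCAR4, a log2 difference of -4.33 (SE 0.585, adjusted p = 8.80e-06). LOX in OVCAR8, with 16.7, 14.7 and 19.2 CPM, overlapped with OVCAR4 (log2 difference -0.19, SE 0.469, adjusted p = 0.734). LOXL4 was at or below 1.51 CPM in every plastic library and was higher in Kuramochi (3.87, adjusted p = 0.000136) and OVCAR8 (3.39, adjusted p = 0.000508) than in OVCAR4, where all 3 libraries together held 6 counts.

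Of the hydroxylases, P4HA2 was highest in OVCAR4, with log2 differences of -1.66 (SE 0.180, adjusted p = 2.86e-07) for Kuramochi and -1.67 (SE 0.180, adjusted p = 1.67e-07) for OVCAR8 relative to OVCAR4. P4HA1 was also lower in Kuramochi (-1.40, adjusted p = 1.41e-06) and in OVCAR8 (-1.0, adjusted p = 4.47e-05) than in OVCAR4. Its higher level in OVCAR8 than in Kuramochi (0.40, adjusted p = 0.0455) sat at the threshold. That call was lost in 11 of 24 alternatives (adjusted p of up to 0.176, without Kuramochi plastic replicate 2). PLOD1 was lower in OVCAR8 than in OVCAR4 (-1.70, adjusted p = 1.19e-08) and than in Kuramochi (-1.69, adjusted p = 1.42e-08), as was PLOD3 (-1.44, adjusted p = 9.67e-08, and -0.84, adjusted p = 6.05e-05). PLOD2 averaged 102 CPM in OVCAR8 and 73.8 CPM in OVCAR4 and was called for that pair alone (0.47, SE 0.160, adjusted p = 0.0140). That call was lost with close libraries summed (0.0631) and without OVCAR4 plastic replicate 42 (0.0527), OVCAR4 plastic replicate 4 (0.0740) or OVCAR8 plastic replicate 62 (0.0646). P4HA3 was higher in OVCAR8 than in Kuramochi (1.73, adjusted p = 0.00645) and than in OVCAR4 (1.23, adjusted p = 0.0342), at 1.35 CPM or less in each library, and the P4HA3 call against OVCAR4 was lost without either of 2 libraries of each line (adjusted p of up to 0.151 without OVCAR8 plastic replicate 61).

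On 3D, 7 of the 10 enzymes rose in Kuramochi, where 14.4% of all genes tested rose and 12.8% fell. In OVCAR4, 4 enzymes rose (15.2% of all genes rose and 11.9% fell), and in OVCAR8 another 4 (7.51% rose and 3.32% fell). The number that fell was 0 in every line by this edgeR fit and by DESeq2, also at an unadjusted p under 0.05, whereas some alternatives called LOXL1 lower, as given below. P4HA2, which hydroxylates collagen prolines, and LOXL4, a lysyl oxidase with scavenger receptor domains, rose in all 3 lines, as did 1.28% of all genes. P4HA3, PLOD2 and LOXL2 rose in 2 lines, P4HA1, PLOD1 and LOX in 1 line, and PLOD3 and LOXL1 in none. Thus 5 members rose in 2 or more lines, as did 10.3% of all genes, and 8 in at least 1 line, as did 25.6%. Without Kuramochi 3D replicate 8, 4 members rose in that line, and without OVCAR8 3D replicate 61, 2 rose in OVCAR8, while by edgeR 0 did there once libraries that differed little from each other were summed (3 at an unadjusted p under 0.05). Kuramochi had 5 members that rose 2-fold or more (5.52% of all genes), OVCAR4 had 2 (6.28%) and OVCAR8 had 2 (5.13%). The groups were separate, with 3D higher, for 7 members in Kuramochi (17.2% of all genes), 4 in OVCAR4 (25.5%) and 6 in OVCAR8 (21.6%). The median log2 fold change over the members was 1.01 in Kuramochi, 0.74 in OVCAR4 and 0.39 in OVCAR8, while that over all genes was 0.02, 0.04 and 0.02.

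**Figure D2:**
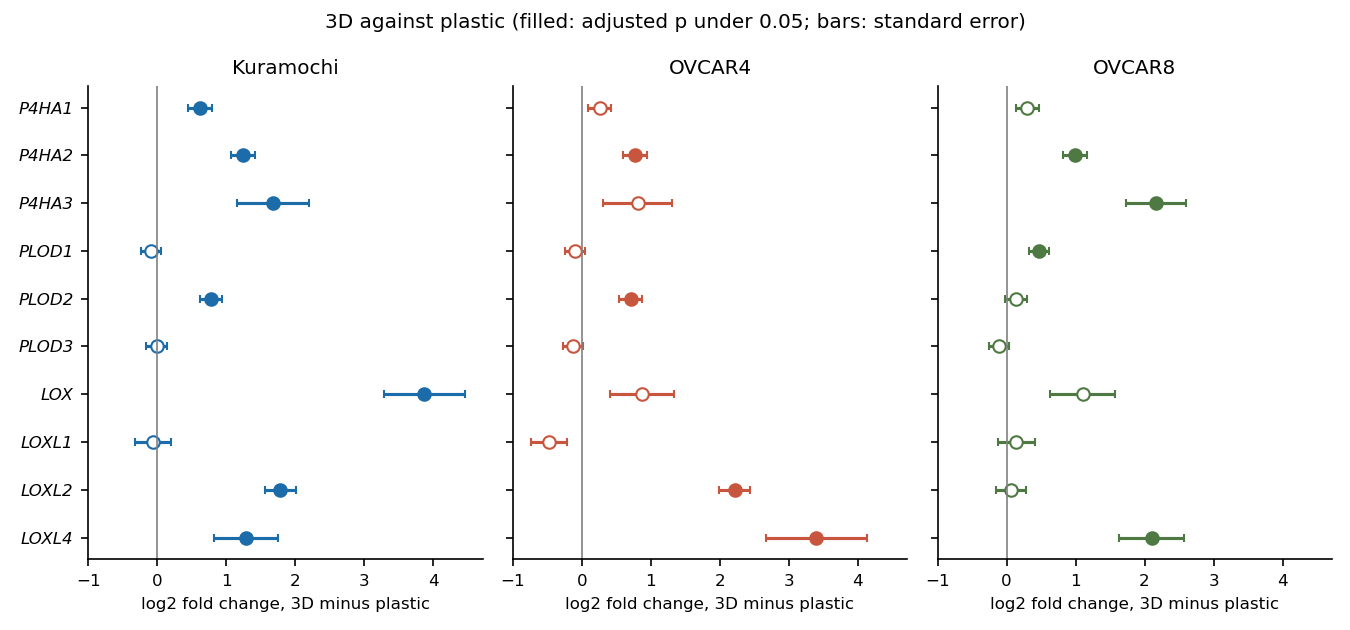
Log2 fold change, 3D minus plastic, for each enzyme (rows) in each line (panels), with bars for 1 standard error and filled points for an adjusted p under 0.05. P4HA2 and LOXL4 are filled in all panels, LOXL2 only in Kuramochi and OVCAR4, and LOX, at 3.87, only in Kuramochi.

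P4HA2 rose in each line. Kuramochi cells had 56.4, 45.0 and 59.0 CPM on 3D, against 20.9, 23.5 and 23.2 CPM on plastic, a 2.37-fold rise (log2 1.25, SE 0.179, adjusted p = 0.000212). In OVCAR4 it had 104, 129 and 131 CPM on 3D, against 69.6, 71.7 and 71.8 CPM on plastic (log2 0.78, SE 0.175, adjusted p = 0.00460). In OVCAR8 it had 31.6, 53.4 and 48.4 CPM on 3D, against 19.0, 27.7 and 20.5 CPM on plastic (log2 0.99, SE 0.178, adjusted p = 0.00168). The groups did not overlap in any line, and the 3 effects did not pass a test of their difference (adjusted p = 0.440). With libraries that differ little from each other summed, the OVCAR8 value was 0.80 (adjusted p = 0.0959).

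P4HA1, the alpha subunit with the higher level per kilobase in every line, rose in Kuramochi only. It had 51.5, 60.8 and 70.5 CPM there on 3D, against 33.0, 41.6 and 44.2 CPM on plastic (log2 0.62, SE 0.171, adjusted p = 0.0129). Without 3D replicate 8 the value was 0.50 (adjusted p = 0.0717). In OVCAR4 the groups overlapped, with 102, 128 and 146 CPM on 3D and 85.0, 107 and 121 CPM on plastic (log2 0.26, SE 0.169, adjusted p = 0.266). In OVCAR8 they overlapped as well, with 52.7, 74.0 and 66.9 CPM on 3D and 49.0, 54.4 and 53.5 CPM on plastic (log2 0.30, SE 0.170, adjusted p = 0.263). No difference between the lines passed the test (adjusted p = 0.533).

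P4HA3, the third alpha subunit, stayed low throughout. In OVCAR8 it had 2.06, 6.20 and 5.17 CPM on 3D, against 0.961, 1.35 and 0.692 CPM on plastic, a 4.49-fold rise (log2 2.17, SE 0.430, adjusted p = 0.00333). Kuramochi cells had 0.968, 0.587 and 1.34 CPM on 3D, against 0.146, 0.413 and 0.332 CPM on plastic (log2 1.68, SE 0.523, adjusted p = 0.0238), from 28, 19 and 40 counts on 3D and 5, 15 and 9 counts on plastic. The Kuramochi call was lost without 3D replicate 8 (adjusted p = 0.109), without plastic replicate 2 (0.0731) and without plastic replicate 8 (0.0593). In OVCAR4 the 3D libraries had 0.366, 0.733 and 1.14 CPM and the plastic libraries 0.381, 0.388 and 0.50 CPM, and the groups overlapped (log2 0.81, adjusted p = 0.241).

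Of the lysyl hydroxylases, PLOD2 rose in Kuramochi and OVCAR4. Kuramochi cells had 119, 162 and 167 CPM on 3D, against 86.1, 87.9 and 87.9 CPM on plastic (log2 0.78, SE 0.161, adjusted p = 0.00248). In OVCAR4 it had 93.3, 128 and 140 CPM on 3D, against 68.2, 68.0 and 85.2 CPM on plastic (log2 0.71, SE 0.161, adjusted p = 0.00483). The groups were separate in both lines, whereas in OVCAR8 97.7, 123 and 116 CPM on 3D overlapped with 105, 89.6 and 113 CPM on plastic (log2 0.13, SE 0.160, adjusted p = 0.633). The difference between the lines itself did not pass the test (adjusted p = 0.138).

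PLOD1 went the other way round, with a call in OVCAR8 alone. There it had 108, 127 and 125 CPM on 3D, against 87.4, 91.2 and 80.7 CPM on plastic (log2 0.47, SE 0.147, adjusted p = 0.0463). This value sat at the threshold and its call was lost in 12 of the alternatives, 5 of them the removal of 1 of the OVCAR8 libraries 3D replicate 61 or 62 or any plastic replicate (adjusted p between 0.0784 and 0.188). In Kuramochi, 258, 269 and 261 CPM on 3D lay within the 222, 356 and 260 CPM on plastic, and in OVCAR4 239, 266 and 279 CPM on 3D overlapped with 241, 310 and 291 CPM on plastic. The log2 values were -0.09 and -0.10 in those lines (SE 0.146 in each), and the difference between the lines did not pass the test (adjusted p = 0.132).

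PLOD3, which also glycosylates hydroxylysine, passed the test in no line. Its log2 values were -0.01 in Kuramochi, -0.13 in OVCAR4 and -0.10 in OVCAR8, with a standard error of 0.146 in each and adjusted p-values of 0.989, 0.546 and 0.695. Its mean was 171 CPM on 3D and 172 CPM on plastic in Kuramochi, 238 and 260 CPM in OVCAR4, and 89.5 and 96.2 CPM in OVCAR8.

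LOX, the founding member of the lysyl oxidases, had the largest fold among the members above 10 CPM on 3D. The Kuramochi libraries had 12.8, 4.45 and 25.1 CPM on 3D, against 0.644, 0.909 and 1.37 CPM on plastic, a 14.7-fold rise (log2 3.87, SE 0.582, adjusted p = 0.000434). The 3D libraries differed among themselves by more than the whole plastic range, and without 3D replicate 8 the log2 value was 3.16 (adjusted p = 0.00153). In OVCAR8 the groups did not overlap, with 25.2, 45.8 and 37.7 CPM on 3D and 16.7, 14.7 and 19.2 CPM on plastic, but the test was not passed (log2 1.10, SE 0.470, adjusted p = 0.141). Separate fits of each line gave an adjusted p of 0.00775 for that value. In OVCAR4, 14.8, 41.3 and 49.7 CPM on 3D stood against 19.5, 16.8 and 21.4 CPM on plastic (log2 0.87, SE 0.468, adjusted p = 0.177). Replicate 42 on 3D lay below all plastic libraries, and without it the log2 value was 1.24 (adjusted p = 0.0471).

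The 3D effect on LOX differed between the lines (adjusted p = 0.0372 for both differences together), as it did for 6.17% of all genes. Kuramochi was the line with the lowest LOX on plastic, and on 3D its 14.1 CPM (SD 10.4, n = 3) remained below the 35.3 CPM of OVCAR4 (SD 18.2) and the 36.2 CPM of OVCAR8 (SD 10.4). This difference between lines was lost in 14 of the 18 removals of 1 library, with adjusted p-values of up to 0.114 (without Kuramochi plastic replicate 4), and with close libraries summed.

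LOXL2 rose in Kuramochi and OVCAR4. In Kuramochi it had 40.7, 31.5 and 44.6 CPM on 3D, against 8.41, 13.2 and 12.3 CPM on plastic (log2 1.78, SE 0.224, adjusted p = 6.98e-05). In OVCAR4 it had 23.5, 44.7 and 52.4 CPM on 3D, against 7.97, 8.97 and 9 CPM on plastic (log2 2.22, SE 0.228, adjusted p = 2.85e-05). In OVCAR8, which already carried the most LOXL2 on plastic, it had 207, 201 and 193 CPM on 3D, against 193, 191 and 191 CPM on plastic (log2 0.06, SE 0.211, adjusted p = 0.886). The difference between the lines passed the test (adjusted p = 0.000686) under every alternative run. Even after the rise, Kuramochi with 38.9 CPM (SD 6.73, n = 3) and OVCAR4 with 40.2 CPM (SD 15) on 3D stood far below OVCAR8 with 200 CPM (SD 6.71).

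LOXL4 rose in all lines from low levels. In OVCAR8 it had 1.55, 3.98 and 3.33 CPM on 3D, against 0.670, 0.723 and 0.663 CPM on plastic (log2 2.10, SE 0.475, adjusted p = 0.00813). The OVCAR4 libraries had 0.340, 0.797 and 0.946 CPM on 3D, from 13, 25 and 34 counts, against 3, 0 and 3 counts on plastic (log2 3.40, SE 0.738, adjusted p = 0.00381). Without the OVCAR4 plastic library that held no count, replicate 4, the log2 value was 2.79 (adjusted p = 0.0270). In Kuramochi it had 1.56, 1.64 and 3.81 CPM on 3D, against 0.762, 0.633 and 1.51 CPM on plastic (log2 1.29, SE 0.467, adjusted p = 0.0481). That call was lost in 13 of the alternatives, with a log2 value of 0.74 without 3D replicate 8 (adjusted p = 0.304), and 1.14 and 1.04 without plastic replicates 2 and 4 (0.103 and 0.195). The OVCAR8 call was lost without 3D replicate 61 (adjusted p = 0.0523).

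LOXL1 passed the test in no line in the fit of all libraries, but was called lower under some alternatives. In Kuramochi it had 325, 124 and 153 CPM on 3D, against 268, 191 and 166 CPM on plastic, and replicate 2 was the highest library in both cultures. Without 3D replicate 2 the log2 value was -0.60 (adjusted p = 0.0263), against -0.06 with it (SE 0.259, adjusted p = 0.909). In OVCAR4 the 3D libraries, with 32.4, 40.2 and 41.5 CPM, all lay below the plastic libraries, with 47.7, 60.1 and 51.2 CPM (log2 -0.48, SE 0.262, adjusted p = 0.183). It was called lower there in separate fits (-0.51, adjusted p = 0.0273), with no filter beyond 1 count (-0.52, adjusted p = 0.0105) and without Kuramochi 3D replicate 2 (-0.48, adjusted p = 0.0409). In OVCAR8, 14.5, 15 and 16 CPM on 3D overlapped with 15.9, 13.7 and 11.7 CPM on plastic.

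**Figure D3:**
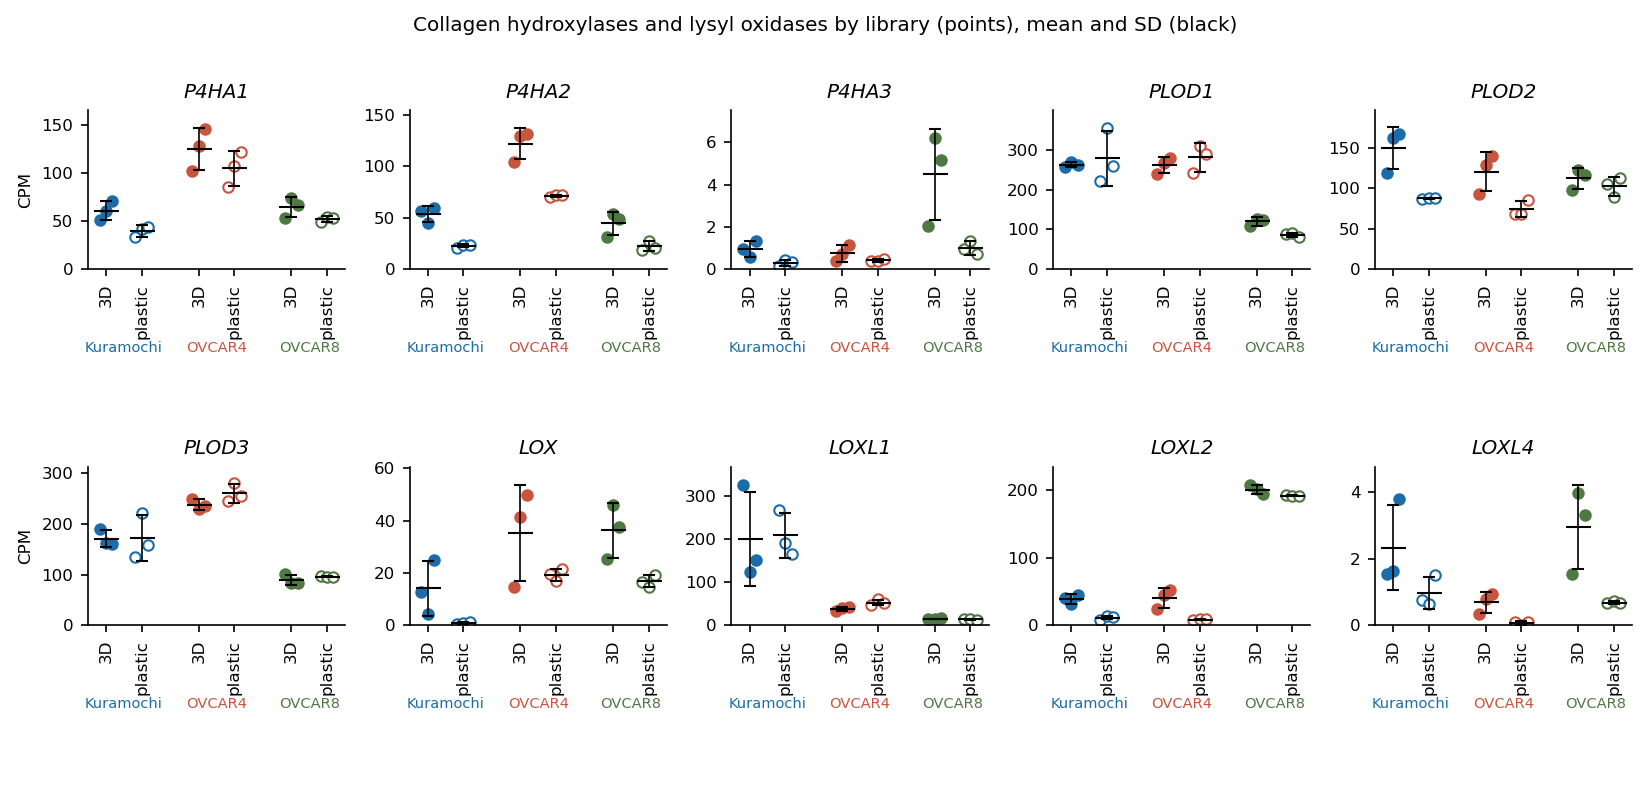
CPM of each enzyme (panels, linear axes from 0) in each library, with filled points for 3D and open points for plastic, and black bars for the mean and SD of 3 libraries. P4HA2 on 3D lies above plastic in every line, LOXL2 is high in OVCAR8 in both cultures, and the 3D libraries of LOX lie far apart in Kuramochi and OVCAR4, as do those of LOXL1 in Kuramochi.

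Of 11 listed fibroblast markers, 8 were called higher on 3D in Kuramochi, 9 in OVCAR4 and 8 in OVCAR8, and no 3D library reached down to plastic for 8, 10 and 9 of them. Over all genes tested, 14.4, 15.2 and 7.51% were called higher in these lines, and 17.2, 25.5 and 21.6% had all 3D libraries above plastic. The exceptions by mean were THY1, at 172 CPM on 3D and 235 CPM on plastic, and TWIST2, at 0.547 and 0.656 CPM, in Kuramochi, and PDGFRB in OVCAR8, at 26.4 CPM on 3D and 29.1 CPM on plastic, each with overlapping groups. Summed over the 11 markers, the level was 519 to 996 CPM on 3D and 333 to 435 CPM on plastic in Kuramochi, 81.0 to 696 CPM and 3.08 to 3.55 CPM in OVCAR4, and 51.6 to 1531 CPM and 31.7 to 38.7 CPM in OVCAR8. DCN and POSTN, secreted by fibroblasts, were at 0 in each of the 9 plastic libraries. Of the 11, FAP, DCN, LUM, COL1A2 and POSTN, 5 genes picked after they were seen to be low on plastic and higher on 3D, summed to 214, 47.1 and 323 CPM in the 3D libraries 2, 4 and 8 of Kuramochi, 38.4, 358 and 353 CPM in 42, 4 and 6 of OVCAR4, and 9.82, 671 and 411 CPM in 4, 61 and 62 of OVCAR8. On plastic their sum was at most 0.369, 2.62 and 0 CPM in those lines. PRRX1 and PDGFRA were low on plastic as well, at most 0.559 and 1.11 CPM, and adding them kept the order of the 3D libraries in each line. Other markers had another order: in Kuramochi COL3A1 was at 281, 391 and 476 CPM and THY1 at 251, 76.1 and 188 CPM in the 3D libraries 2, 4 and 8. Fewer cells of a type and less RNA per cell cannot be told apart in such bulk samples. The cancer cells had been sorted by GFP, and the part of fibroblast RNA in the rises was not tested.

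The 3D library with the least of these 5 markers in a line was also the lowest 3D library for 12 of the 15 rises and for 10 of the 15 results that were not rises. These counts, and those by position against plastic below, rest on a single library per line. The same counts were not made over all genes, so whether they are particular to the members was not tested. For LOX the order of the 3D libraries was that of the markers in Kuramochi and OVCAR8, and in OVCAR4 replicate 42 was lowest in both. The 15 rises had separate groups, so that library also lay above plastic in each of them, while of the other 15 results it lay above all plastic libraries in 3, among them in 7 and below them in 5. The last were LOXL1 in Kuramochi and LOX, P4HA3, PLOD1 and LOXL1 in OVCAR4. In OVCAR8 replicate 4, with 9.82 CPM of the 5 markers, P4HA2 was at 31.6 CPM against at most 27.7 CPM on plastic, P4HA3 at 2.06 CPM against at most 1.35 CPM, and LOXL4 at 1.55 CPM against at most 0.723 CPM. In OVCAR4 replicate 42, with 38.4 CPM, LOXL2 was at 23.5 CPM against at most 9 CPM on plastic, and P4HA2 at 104 CPM against at most 71.8 CPM. LOXL2 in OVCAR8 was highest in the library with the least markers, at 207 CPM.

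**Figure D4:**
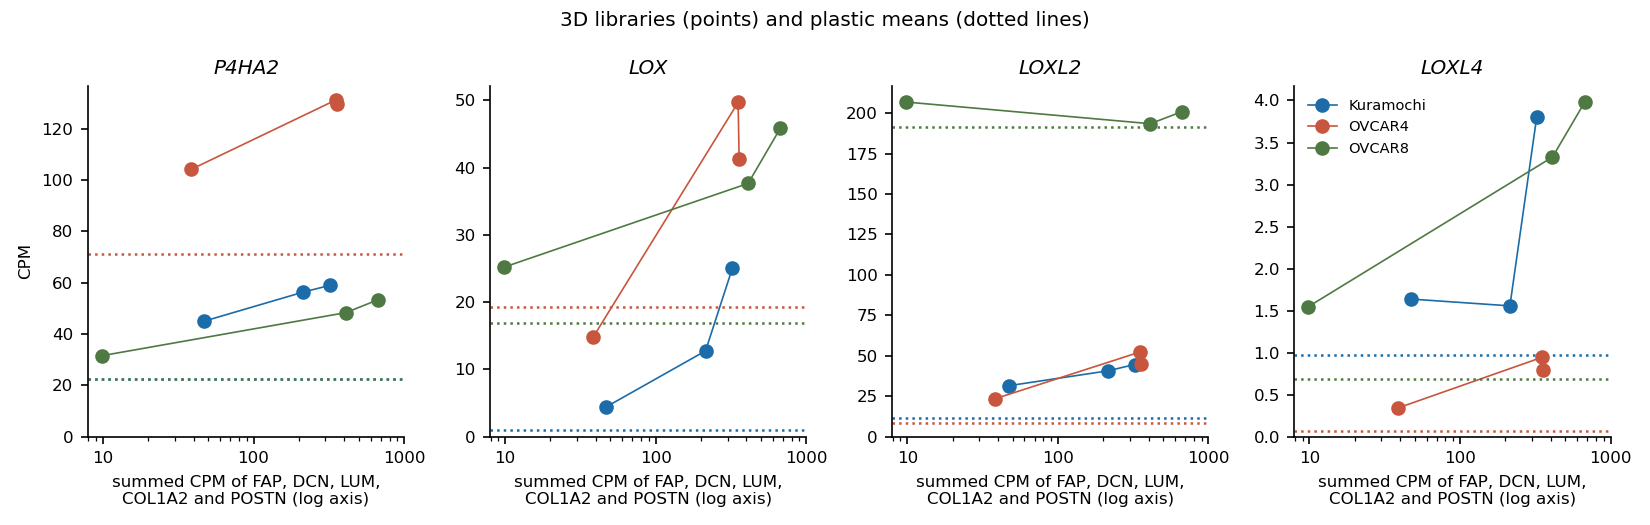
CPM of 4 enzymes (linear axes from 0) in the 9 libraries on 3D, against the summed CPM of 5 fibroblast markers (logarithmic axis), with thin lines joining the 3 libraries of a line and dotted lines for its mean on plastic. P4HA2 stays above the dotted line at the lowest marker sums, while LOX of OVCAR4 falls below it at 38.4 CPM of markers.

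Of 8 markers of the mesothelial layer, 4 rose and 1 fell in Kuramochi, 4 rose in OVCAR4 and 3 rose in OVCAR8. Over all genes tested, 14.4, 15.2 and 7.51% rose in these lines, and 12.8, 11.9 and 3.32% fell. The sum over 8 genes was 35.3 to 49.4 CPM on 3D and 38.0 to 88.4 CPM on plastic in Kuramochi, 121 to 135 CPM and 104 to 175 CPM in OVCAR4, and 58.1 to 59.8 CPM and 48.6 to 55.5 CPM in OVCAR8, where the groups did not overlap. UPK3B in Kuramochi and OVCAR4 and BNC1 in OVCAR8 made up most of its mean in both cultures. LRRN4 averaged 11.9 CPM on 3D and 6.84 CPM on plastic in Kuramochi, 5.94 and 2.37 CPM in OVCAR4, and 6.24 and 3.30 CPM in OVCAR8. CALB2 averaged 0.663 CPM on 3D and 0 CPM on plastic in Kuramochi, 0.567 and 0.0622 CPM in OVCAR4, and 3.20 and 1.00 CPM in OVCAR8. PRG4 averaged 2.69 CPM on 3D and 0 CPM on plastic in Kuramochi, 0.673 and 0.0712 CPM in OVCAR4, and 1.56 and 0.00962 CPM in OVCAR8. The 3D libraries of LRRN4, CALB2 and PRG4 lay above plastic in each line. By contrast, UPK3B fell in Kuramochi, with means of 23.6 CPM on 3D and 57.2 CPM on plastic and overlapping groups (log2 -1.28, adjusted p = 0.0113). KRT5 in OVCAR4, at 2.55 CPM on 3D and 4.40 CPM on plastic, and BNC1 in OVCAR8, at 46.9 and 47.8 CPM, also had overlapping groups. HAS1 was at 0 on plastic in every line, with at most 0.450 CPM on 3D, and ITLN1 stayed below 0.07 CPM in all libraries. The leukocyte markers PTPRC and CD3E and the adipocyte marker ADIPOQ averaged under 0.2 CPM in every group. With CD68, which made up nearly all of it, the leukocyte sum was 2.29 to 5.04 CPM on 3D and 1.46 to 2.84 CPM on plastic in Kuramochi, 21.5 to 35.2 CPM and 9.47 to 17.5 CPM in OVCAR4, and 81.7 to 94.4 CPM and 20.0 to 22.6 CPM in OVCAR8. The part of these cells in the rises was not tested.

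Partners of these enzymes inside the cell were called in Kuramochi and OVCAR4 by edgeR. Of 17 listed genes for collagen folding, modification and export, 5 rose and 0 fell in Kuramochi, 7 rose and 1 fell in OVCAR4, and 0 rose and 0 fell in OVCAR8, with median log2 fold changes of 0.22, 0.06 and 0.22. In OVCAR8, 6 were higher and 1 lower at an unadjusted p under 0.05, and DESeq2 called 2 higher and 1 lower. With close libraries summed, 5, 3 and 0 rose. Of all genes tested, 14.4, 15.2 and 7.51% rose in Kuramochi, OVCAR4 and OVCAR8, and 12.8, 11.9 and 3.32% fell. In counts, 3182, 3352 and 1654 of 22023 genes rose, and 2317, 1217 and 361 of 22376 with close libraries summed. These values over all genes also apply beside the counts of the lists that follow. P4HB, the beta subunit of prolyl 4-hydroxylase, had log2 values of -0.09, -0.06 and 0.18 and was called in no line. SERPINH1, the collagen chaperone HSP47, was not called either, at 0.22, -0.12 and -0.45. FKBP14, a prolyl isomerase that acts on procollagen, rose in Kuramochi (1.07, SE 0.161, adjusted p = 0.000299) and OVCAR4 (0.50, SE 0.160, adjusted p = 0.0270, up to 0.169 without 1 library). SEC23A and SEC24D, coat proteins of the vesicles that carry procollagen out of the endoplasmic reticulum, rose in the same lines, by 1.00 and 0.62 on the log2 scale in Kuramochi and 0.80 and 0.72 in OVCAR4, though the SEC24D call in Kuramochi was lost without plastic replicate 4 (adjusted p = 0.0620) and in separate fits, and that of SEC23A in OVCAR4 with close libraries summed (0.0554). FKBP10, a partner of PLOD2 in telopeptide hydroxylation, was called higher in OVCAR4 only (3.94, SE 0.540, adjusted p = 0.000292), from a low level. It averaged 0.266 CPM on plastic there, with 1.07, 6.03 and 5.48 CPM in the 3D libraries 42, 4 and 6. Its means were 383 CPM on 3D and 291 CPM on plastic in Kuramochi, and 151 and 90.4 CPM in OVCAR8. In these lines the 3D libraries also lay above plastic. LOXL3, the remaining lysyl oxidase, was the gene that fell in OVCAR4 (-0.49, adjusted p = 0.0495), a call lost in 14 of 25 alternatives.

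The genes for trimming procollagen and for crosslinking outside the cell were listed next. Of 14 listed, 8 rose and 1 fell in Kuramochi, 8 rose and 2 fell in OVCAR4, and 4 rose and 0 fell in OVCAR8, with medians of 0.88, 1.25 and 0.68. With close libraries summed, 8, 7 and 1 rose. ADAMTS14, a procollagen N-proteinase, rose in all lines (1.53, 1.91 and 1.79 on the log2 scale, adjusted p = 0.0229, 0.00385 and 0.0279), of which the Kuramochi call was lost without any of 3 libraries (adjusted p up to 0.0792) and the OVCAR8 call without any of 4 (up to 0.160). ATP7A, which supplies copper to lysyl oxidases, rose in Kuramochi (1.25, adjusted p = 0.00191) and OVCAR4 (1.21, adjusted p = 0.00249). LUM, which binds collagen fibrils and is one of the fibroblast markers above, also rose in all lines, with 1, 4 and 6 alternatives that lost the call in Kuramochi, OVCAR4 and OVCAR8. BMP1, the proteinase that trims procollagen and activates LOX, rose in Kuramochi (0.80, adjusted p = 0.00709) and OVCAR4 (1.07, adjusted p = 0.00177).

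The substrates were listed as well. Of 12 collagen chains, 5 rose in Kuramochi, 9 did so in OVCAR4, 6 did so in OVCAR8, and 0 fell in any of them, with medians of 1.05, 2.80 and 2.13. With close libraries summed, 3, 6 and 4 rose. COL1A2, COL6A2 and COL6A3 rose in all lines. COL1A2 averaged 164 CPM on 3D and 0.0369 CPM on plastic in Kuramochi, 214 and 2.33 CPM in OVCAR4, and 325 CPM on 3D (SD 298, n = 3) with 0 counts on plastic in OVCAR8, where separate fits lost the call. The 3D libraries differed widely in each line, with 180, 38.2 and 275 CPM in 2, 4 and 8 of Kuramochi, 31.9, 308 and 303 CPM in 42, 4 and 6 of OVCAR4, and 8.33, 599 and 367 CPM in 4, 61 and 62 of OVCAR8. COL6A2, by contrast, was already at 43, 42.8 and 97.9 CPM on plastic in Kuramochi, OVCAR4 and OVCAR8, and rose by 0.98, 1.25 and 1.19 on the log2 scale. Its calls were lost in all lines with close libraries summed (adjusted p = 0.0571, 0.0739 and 0.303) and without any of several single libraries, with adjusted p-values of up to 0.168, 0.0519 and 0.120.

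Sets of genes known to respond to signals that also act on some of these enzymes were listed beside them. Of 11 hypoxia response genes, 1 rose and 0 fell in Kuramochi, 4 rose and 1 fell in OVCAR4, and 2 rose and 3 fell in OVCAR8, with medians of 0.41, 0.18 and -0.18. With close libraries summed, 1, 2 and 0 rose and 0 fell in any line, with 3 higher and 2 lower at an unadjusted p under 0.05 in OVCAR8. SLC2A1, the glucose transporter GLUT1, rose in Kuramochi (0.61, adjusted p = 0.00938, lost in separate fits) and OVCAR4 (0.69, adjusted p = 0.00515) and fell in OVCAR8 (-0.57, adjusted p = 0.0280), where the call was lost without any of 4 libraries (up to 0.159) and with close libraries summed (0.424). In OVCAR8, VEGFA, the angiogenic factor, rose (1.66, SE 0.295, adjusted p = 0.00176), a call lost with close libraries summed (0.0667). ADM, the vasodilator peptide adrenomedullin, fell there, with means of 61.5 CPM on 3D and 160 CPM on plastic (-1.38, adjusted p = 0.0235, up to 0.140 without 1 library), whereas it rose in OVCAR4 (1.33, adjusted p = 0.0170, up to 0.0895 without 1 library). ANKRD37 also fell in OVCAR8, with means of 2.08 CPM on 3D and 4.67 CPM on plastic (-1.17, adjusted p = 0.00667, and 0.0551 without 3D replicate 62). In OVCAR4, NDRG1 rose by 1.48 (adjusted p = 0.00233) and CA9, a carbonic anhydrase, by 2.19 (adjusted p = 0.0398, lost in 11 of 24 alternatives). Of 7 TGF-beta response genes, 5 rose in Kuramochi, 3 did so in OVCAR4, 1 did so in OVCAR8, and 0 fell in any, with medians of 1.76, 1.05 and 0.45. With close libraries summed, 4, 2 and 0 rose. SKIL, a feedback inhibitor of that pathway, rose in Kuramochi (1.76, SE 0.194, adjusted p = 2.03e-05) and OVCAR4 (1.54, SE 0.192, adjusted p = 0.000125). The medians of these lists were the same when genes at 0 in a whole group were set to the bound that 3 counts in the group allow.

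The members were also compared with each other over the 18 libraries, after the mean of each line was subtracted from log2 CPM. The libraries share their lines, cultures and sorting, and these values are descriptions. P4HA2 and P4HA3 had a Pearson r of 0.91, PLOD2 and LOXL2 of 0.89 and LOX and P4HA2 of 0.85. By contrast, LOXL1 reached at most 0.13 and PLOD3 at most 0.31 with any other member. Of all genes tested, the one most like P4HA2 on this scale was COL1A2 (r = 0.971), the one most like LOX was FNDC1 (0.959), the one most like LOXL2 was NDN (0.973), and the one most like LOXL4 was RGS4 (0.958). The second most alike were PRG4 for P4HA2 (0.969), PRRX1 for LOX (0.943), ITPRIP for LOXL2 (0.962) and CLIP4 for LOXL4 (0.952). Of these genes, COL1A2 and PRRX1 are fibroblast markers and PRG4 is a mesothelial marker of the lists above, and the others are on no marker list. PLOD1 was most like COLGALT1 (0.918), which encodes a collagen galactosyltransferase, P4HA1 was most like AXL (0.922), and PLOD2 was most like CFAP44 (0.955). Without subtracting the line means, LOXL2 was most like TMEM200A (0.987), LOXL1 most like SSBP3 (0.985) and LOXL4 most like C1S (0.935).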

How the data were processed

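The deposited values are raw counts of reads per gene, neither scaled nor filtered by the authors. Per the labels (the submitters' processing notes), Trimmomatic 0.33 and TopHat2 2.1.0 were used with HTSeq on GRCh38, and libraries came from a stranded mRNA kit. GENCODE 44 gave a name to 57532 of the 58288 Ensembl IDs, which hold 99.75% of counts.

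Libraries were grouped by line and culture from the labels. Differences were tested in R 4.3.3 with edgeR 4.0.16 on limma 3.58.1, by robust quasi-likelihood fits on TMM factors of all 18 libraries in 1 model of 6 groups, after filterByExpr (minimum count 10, minimum total 15). Contrasts were 3D minus plastic in each line, the lines on plastic, and both differences of the 3D effect together. Adjustment was by Benjamini-Hochberg over 22023 genes, with calls under 0.05. A second count, at 2-fold or more, follows the study. P-values measure the spread between the libraries of a group. The scripts were tested on simulated data. Levels are CPM on TMM-scaled library sizes, and levels per kb use the exon union of GENCODE 44, a later release than the one used for counting. Library totals give a precision limited by the spread between replicates and, for genes under about 1 CPM, by counting.

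The members and lists were chosen with earlier results of these data known. Besides the 10 members, the text names listed genes called in all lines or among the 3 largest called changes of a line with at least 1 CPM, and the genes most like a member. ATP7A, BMP1, P4HB, SERPINH1 and LOXL3 were added after their values were seen. As alternatives, the fits were repeated with RLE factors, with DESeq2 1.42.0, without a filter beyond 1 count, with a filter of 1 CPM in 3 libraries, a replicate block, separate fits per line, close libraries summed (chi-square per degree of freedom under 5), each library left out, and, added after seeing the data, canonical transcript length. Replicate numbers shared by 3D and plastic were checked by the correlation of deviations from the group means. It was 0.169, 0.125 and 0.282 in Kuramochi, 0.0899 to 0.325 in OVCAR4 and -0.0841 to 0.106 in OVCAR8. Libraries with unlike numbers reached 0.028, 0.174 and 0.116 in these lines. The labels do not state whether libraries with the same number come from 1 experiment. The main fit therefore treated all libraries as unpaired, and the replicate block was run as an alternative. Tumor samples were not analysed here.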

Additional observations from a re-analysis of the deposited data

Results flagged for a closer look

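The 3D effect on LOX differed between the lines by the test of both interaction contrasts together (adjusted p = 0.0372), with log2 fold changes of 3.87 in Kuramochi, 0.87 in OVCAR4 and 1.10 in OVCAR8.

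The 3D effect on LOXL2 differed between the lines by the same test (adjusted p = 0.000686), with log2 fold changes of 1.78 in Kuramochi, 2.22 in OVCAR4 and 0.06 in OVCAR8.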

How the results depend on the processing

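Of 1710 recomputed values for the 70 member results, 1628 kept their call, 69 lost it, 13 gained one and 0 changed the sign of a call. The call was the same in every alternative for 19 of 30 results of 3D against plastic, 26 of 30 on plastic and 8 of 10 differences between lines. Of the 7 members that rose in Kuramochi, 4 did in separate fits, and of the 4 in OVCAR8, 0 did with close libraries summed, where the pairs 61 and 62 on 3D and 4 and 62 on plastic became 1 sample each. In OVCAR4 the pair 4 and 6 on 3D also became 1 sample, and 4 members rose there. With those sums, 1 of the 2 differences between lines remained called, that of LOXL2. Leaving out 1 library at a time gave 4 to 8 members in Kuramochi, 4 to 5 in OVCAR4, 2 to 4 in OVCAR8, 6 to 7 between Kuramochi and OVCAR4, 7 to 9 between OVCAR8 and OVCAR4, 6 to 7 between OVCAR8 and Kuramochi, and 1 to 2 differences of the 3D effect. The replicate block gave 7, 5 and 4 members in Kuramochi, OVCAR4 and OVCAR8 and 2 differences between lines, and LOXL1 in OVCAR4 was the call it changed (log2 -0.48, adjusted p = 0.0433). The cause of these shifts was not tested. Over all genes, the counts of calls ran for 6011 in Kuramochi from 2095 (separate fits) to 7969, for 5962 in OVCAR4 from 1830 (close libraries summed) to 7060, for 2385 in OVCAR8 from 440 (close libraries summed) to 5585 (separate fits), and for 1358 genes that differed between lines from 225 (close libraries summed) to 2979 (no filter). LOXL4 in OVCAR4 on plastic, with 6 counts in all, and P4HA3 are limited by depth.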
